A study of Mus musculus with 26 samples.

Results

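The wide EZH2 domains of wild-type (WT) mouse embryonic fibroblasts (MEFs) are the 298 EZH2 peaks of WT replicate 1 (Rep1) that measured 5000 bp or more and overlapped an EZH2 peak of WT Rep2. They make up 1.34% of the 22316 EZH2 peaks in the WT Rep1 list and hold 16.9% of its bases. The members were selected on the width and overlap of EZH2 peaks in WT, so the EZH2 values of WT are given as a description, with no test.

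The lines were female MEFs of 3 genotypes. WT cells were unmodified, ATRXΔRBR cells were 1 CRISPR clone with an in-frame deletion in the RNA binding region (RBR) of the endogenous ATRX protein, and ATRX KD cells carried a short hairpin RNA (shRNA) against ATRX and were selected with puromycin. CUT&RUN, which releases DNA fragments around an antibody-bound protein or mark, was run for EZH2 and H3K27me3 in all 3 genotypes and for ATRX in WT and ATRXΔRBR, and polyA RNA-Seq was run in all 3. Each group had 2 libraries, which the methods of the study call biological replicates without saying how the cultures were separated. With a single clone, the deletion and the history of the clone cannot be told apart.

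EZH2 is the catalytic subunit of Polycomb repressive complex 2 (PRC2), which places methyl groups on lysine 27 of histone H3, and the trimethylated form, H3K27me3, marks genes that are kept silent. In differentiated cells such as fibroblasts, PRC2 lies over the CpG-rich promoters of developmental regulators of other lineages, and the most extended stretches are known for homeobox clusters and other transcription factor genes. ATRX is a chromatin remodeller of the SNF2 family that has been linked to heterochromatin and to PRC2.

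The domains measured from 5007 to 134831 bp, with a median of 7396 bp, and 3063013 bp in all. Of the 298, 90 were 10 kb or wider and 24 were 20 kb or wider. The 3 domains just above the limit lay nearest to Gm32351 (5007 bp), Alx1 (5024 bp) and BC107364 (5030 bp), and the 3 peaks just below it lay nearest to Bcl11b (4998 bp), Plcl1 (4995 bp) and Barx1 (4993 bp). All of these were at least 74.3% covered in EZH2 WT Rep2. The only wide peak of WT Rep1 without a match in WT Rep2 was 5630 bp on chromosome 17, nearest to Gm42418, with a fold enrichment of 1.70, against 4.56 to 17.1 in the 298 members.

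By the transcription start sites (TSSs) of the GENCODE M21 annotation, 239 domains held a TSS, 202 of them of a protein-coding gene, and 59 held none. The TSSs inside belonged to 422 genes, 236 of them protein coding. The widest domain, on chromosome 15 (mm10, 102908526 to 103043356), held the Hoxc genes from Hoxc13 to Hoxc4. The next were the domain of Hoxa9, Hoxa10, Hoxa11 and Hoxa13 (45517 bp, chromosome 6), the domain of Pax6 (33325 bp, chromosome 2), which directs eye and forebrain formation, and the domain of Hoxd10, Hoxd9, Hoxd8, Hoxd4 and Hoxd3 (32820 bp, chromosome 2). Domains of Nkx2-3 (28485 bp), Barhl2 (27412 bp), Uncx (26697 bp), Evx2 with Hoxd13, Hoxd12 and Hoxd11 (26552 bp), Zic5 with Zic2 (26431 bp) and Lbx1 (24716 bp) completed the 10 widest. Each of these 10 held a transcription factor gene of embryonic patterning.

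Of 39 Hox genes, 25 (64.1%) had their TSS in a domain, as did 53 of 135 homeobox genes outside the Hox clusters (39.3%) and 5 of 9 Pax genes. Of 44 basic helix-loop-helix lineage factors, which include the neurogenic factors Neurog1 and Neurog2, 13 were members. The shares were 9 of 44 forkhead genes, 5 of 19 Sox genes and 5 of 17 T-box genes. Signalling genes were rarer, with 1 of 42 Wnt ligands and antagonists (Wnt7b), 1 of 35 genes of bone morphogenetic proteins and their antagonists (Nog) and 3 of 25 Fgf and hedgehog ligands (Ihh, Shh and Fgf9). No gene of the PRC1 or PRC2 subunits was a member.

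The promoters below come from RefSeq (GRCm38.p6, which is mm10) and are shown because their domains ended at opposite extremes of H3K27me3 in ATRXΔRBR. Each is the 250 bases before the start of the gene, read 5′ to 3′ on the strand of the gene, with CpG dinucleotides in capitals. Msx1, Sall1 and Prdm16 stand in the widest domains without any H3K27me3 peak in either ATRXΔRBR list for which such a window lay outside exons. Nkx2-3, Pax2 and Mnx1 stand in the widest, under the same condition on the window, that kept at least 90% of their length under H3K27me3 in both. Some wider domains that kept the mark, such as that of Lbx1, are thus not shown. Msx1 lies at chr5:37824586-37824835 (−), Sall1 at chr8:89044163-89044412 (−), Prdm16 at chr4:154636874-154637123 (−), Nkx2-3 at chr19:43612075-43612324 (+), Pax2 at chr19:44746351-44746600 (+) and Mnx1 at chr5:29478471-29478720 (−).
Msx1: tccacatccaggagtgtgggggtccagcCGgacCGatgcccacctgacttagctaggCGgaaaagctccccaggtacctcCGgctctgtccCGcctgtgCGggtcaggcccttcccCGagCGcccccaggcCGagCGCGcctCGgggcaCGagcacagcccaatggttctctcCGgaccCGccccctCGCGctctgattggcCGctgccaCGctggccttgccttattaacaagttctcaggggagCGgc
Sall1: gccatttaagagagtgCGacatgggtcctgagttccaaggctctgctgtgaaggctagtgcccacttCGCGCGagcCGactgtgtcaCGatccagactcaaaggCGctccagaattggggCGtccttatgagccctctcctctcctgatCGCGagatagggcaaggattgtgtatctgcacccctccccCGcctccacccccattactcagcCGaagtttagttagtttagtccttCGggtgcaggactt
Prdm16: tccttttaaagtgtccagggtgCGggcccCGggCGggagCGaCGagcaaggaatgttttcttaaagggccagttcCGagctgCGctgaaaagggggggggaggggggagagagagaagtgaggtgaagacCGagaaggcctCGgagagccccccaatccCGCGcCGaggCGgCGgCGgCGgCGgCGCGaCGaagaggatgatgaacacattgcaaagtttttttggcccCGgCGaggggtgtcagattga
Nkx2-3: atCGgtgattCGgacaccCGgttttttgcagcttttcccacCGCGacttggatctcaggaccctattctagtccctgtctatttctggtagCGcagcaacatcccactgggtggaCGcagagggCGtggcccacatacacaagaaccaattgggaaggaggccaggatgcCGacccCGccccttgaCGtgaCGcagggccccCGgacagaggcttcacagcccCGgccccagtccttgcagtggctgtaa
Pax2: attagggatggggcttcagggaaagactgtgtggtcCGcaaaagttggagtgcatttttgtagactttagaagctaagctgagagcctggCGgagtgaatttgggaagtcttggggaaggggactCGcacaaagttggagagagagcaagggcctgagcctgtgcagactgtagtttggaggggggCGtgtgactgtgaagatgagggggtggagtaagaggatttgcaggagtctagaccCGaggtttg
Mnx1: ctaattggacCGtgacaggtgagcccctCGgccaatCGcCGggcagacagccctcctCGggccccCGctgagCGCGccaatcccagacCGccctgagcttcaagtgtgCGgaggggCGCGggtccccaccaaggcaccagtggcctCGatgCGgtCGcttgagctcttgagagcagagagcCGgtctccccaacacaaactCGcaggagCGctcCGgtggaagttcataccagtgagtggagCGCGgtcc

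The windows of the domains that lost the mark held 20 CpGs (Msx1), 13 (Sall1) and 22 (Prdm16), and those of the domains that kept it held 14 (Nkx2-3), 5 (Pax2) and 21 (Mnx1), so the counts of both sets overlapped. Of all 32851 promoters in the table, 17.9% held at least as many CpGs as Msx1 and 55.6% at least as many as Pax2. The median was 6 CpGs over all promoters and 15 over the 199 protein-coding member genes found in the table, of 236.

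A second set of 200-base stretches, from the plus strand, shows the composition of what EZH2 still covered in ATRX KD. They come from the 2 widest domains. For each, the first is the middle of the longest stretch outside exons that lay under EZH2 peaks in both ATRX KD lists, and the second is the middle of the longest stretch that lay under EZH2 in neither. In the Hoxc domain these are chr15:102975853-102976052 (7 CpGs, from a stretch of 1516 bp) and chr15:102968420-102968619 (2 CpGs, from a stretch of 13127 bp). In the Hoxa domain they are chr6:52259598-52259797 (9 CpGs, from a stretch of 911 bp) and chr6:52238911-52239110 (2 CpGs, from a stretch of 11294 bp).
Hoxc, under EZH2 in both ATRX KD lists: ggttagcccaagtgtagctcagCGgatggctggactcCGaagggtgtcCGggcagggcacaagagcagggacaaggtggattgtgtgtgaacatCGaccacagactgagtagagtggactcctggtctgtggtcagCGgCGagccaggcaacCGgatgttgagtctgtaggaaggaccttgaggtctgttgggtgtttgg
Hoxc, under EZH2 in neither: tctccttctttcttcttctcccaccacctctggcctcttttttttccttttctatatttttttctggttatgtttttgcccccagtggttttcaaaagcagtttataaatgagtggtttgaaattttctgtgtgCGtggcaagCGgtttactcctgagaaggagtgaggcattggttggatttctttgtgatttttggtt
Hoxa, under EZH2 in both ATRX KD lists: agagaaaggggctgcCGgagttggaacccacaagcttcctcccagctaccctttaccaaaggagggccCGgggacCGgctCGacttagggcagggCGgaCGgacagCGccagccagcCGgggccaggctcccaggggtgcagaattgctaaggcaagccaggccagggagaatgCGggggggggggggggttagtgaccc
Hoxa, under EZH2 in neither: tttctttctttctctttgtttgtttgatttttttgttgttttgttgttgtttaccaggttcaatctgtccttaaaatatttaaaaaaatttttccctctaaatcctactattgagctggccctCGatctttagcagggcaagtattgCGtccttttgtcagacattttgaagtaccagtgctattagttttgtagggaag

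Over whole domains the median was 3.30 CpGs per 100 bp and 51.8% G and C, and repeats took 14.0% of the sequence. Narrower EZH2 peaks of WT Rep1 that also overlapped WT Rep2 were denser in CpG, with medians of 4.65 per 100 bp at 2500 to under 5000 bp, 6.74 at 1000 to under 2500 bp and 5.31 under 1000 bp. The wide domains thus reach beyond the CpG-dense sequence around promoters.

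Before the values by genotype, 2 sets of libraries need a remark. The library labelled EZH2 ATRXΔRBR Rep2 followed the H3K27me3 pattern of WT. Outside the wide domains, 511 regions carried H3K27me3 in both WT lists but in neither ATRXΔRBR list; an EZH2 peak lay on 46.4% and 42.5% of them in WT, on 3.13% in ATRXΔRBR Rep1 and on 30.3% in ATRXΔRBR Rep2. In the opposite set, 1350 regions with H3K27me3 in ATRXΔRBR only, the shares were 3.78% and 3.26% in WT, 19.7% in ATRXΔRBR Rep1 and 2.67% in ATRXΔRBR Rep2. EZH2 values of ATRXΔRBR are therefore given for each library, and the mean over both is also given without Rep2. In the RNA-Seq libraries labelled ATRX KD, Atrx itself did not differ from WT beyond the spread between libraries, with 420 and 556 CPM (counts scaled to library size) in these libraries, 619 and 429 in the WT pair and 374 and 308 in the ATRXΔRBR pair (edgeR quasi-likelihood test, ATRX KD against WT, log2 fold change −0.15 ± 0.21 SE, adjusted p = 0.605). In the deposited TPM, which also divide by transcript length, Atrx was higher there, at 331 and 512 against 233 and 141 in WT and 175 and 124 in ATRXΔRBR, so its direction depends on the scale. These are RNA values, while the study reported depleted ATRX protein in its ATRX KD cells by western blot. The raw files of the ATRX KD libraries also had another form of name than the rest, which names no sequencing run, so a run and the genotype cannot be told apart there.

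In WT the domains were H3K27me3 domains throughout. The share of all domain bases under H3K27me3 peaks was 99.4% in Rep1 and 99.3% in Rep2, and every domain was covered by at least 74.4% in Rep1 and 63.5% in Rep2. A single H3K27me3 peak touched 293 of the 298 in each library, with a median width of 24582 bp in Rep1 and 25447 bp in Rep2, so the mark reached well past the EZH2 domain on both sides. Coverage by H3K27me3 in WT Rep1 fell with the width of the EZH2 peak, to 86.9% at 2500 to under 5000 bp, 33.9% at 1000 to under 2500 bp and 11.6% under 1000 bp. EZH2 WT Rep2, the list whose overlap was part of the choice, covered 93.8% of the bases, and 255 domains held a peak of 5 kb or more there.

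ATRX peaks were almost absent from the domains. They covered 0.117% of the bases in ATRX WT Rep1 and none in WT Rep2, against 0.0531% and 0.0334% in ATRXΔRBR. A peak fell in 9, 0, 5 and 3 domains of the 4 lists, among them those of Plag1 with Chchd7, Smarca2, Nkx6-1, Mafa, Gsx2 and Shox2. Narrower EZH2 peaks were covered more by ATRX WT Rep1, at 1.17%, 8.64% and 18.7% for the 3 width classes in falling order. The ATRX lists were short everywhere, with 9141 and 4781 peaks in WT and 6274 and 4813 in ATRXΔRBR. All peaks of ATRX WT Rep1 together measured 3763514 bp. Whether the domains hold less ATRX than the genome at large was not tested. The difference between ATRXΔRBR and WT was −0.0151 percentage points over the domains (exact two-sided permutation test over 2 against 2 libraries, p = 1), and the ranges of the libraries overlapped.

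In ATRXΔRBR most domains kept H3K27me3 and a minority lost it. H3K27me3 peaks covered 80.7% of the domain bases in Rep1 and 78.5% in Rep2, below both WT values. The mean fell by 19.7 percentage points, from 99.3% ± 0.0376 to 79.6% ± 1.57 (SD, n = 2 libraries each). The groups did not overlap, and the exact two-sided permutation test gave p = 0.333, the smallest that 2 against 2 libraries allow. As the domains were chosen on EZH2 in WT and were almost full of H3K27me3 there, a fall was the direction open to them. Both libraries agreed on which domains were affected (Spearman 0.906 between their shares over 298 domains, given as a description). The fall was not confined to wide domains. At 2500 to under 5000 bp, H3K27me3 covered 63.5% and 60.6% of WT EZH2 peaks in ATRXΔRBR, against 86.9% and 87.9% in WT. At 1000 to under 2500 bp the shares were 22.8% and 21.8%, against 33.9% and 34.4%. Under 1000 bp they were 8.15% and 7.72%, against 11.6% and 12.03%. All H3K27me3 peaks together measured 147450969 and 126920056 bp in ATRXΔRBR, above the 102989054 and 118350404 bp in WT.

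**Figure D1:**
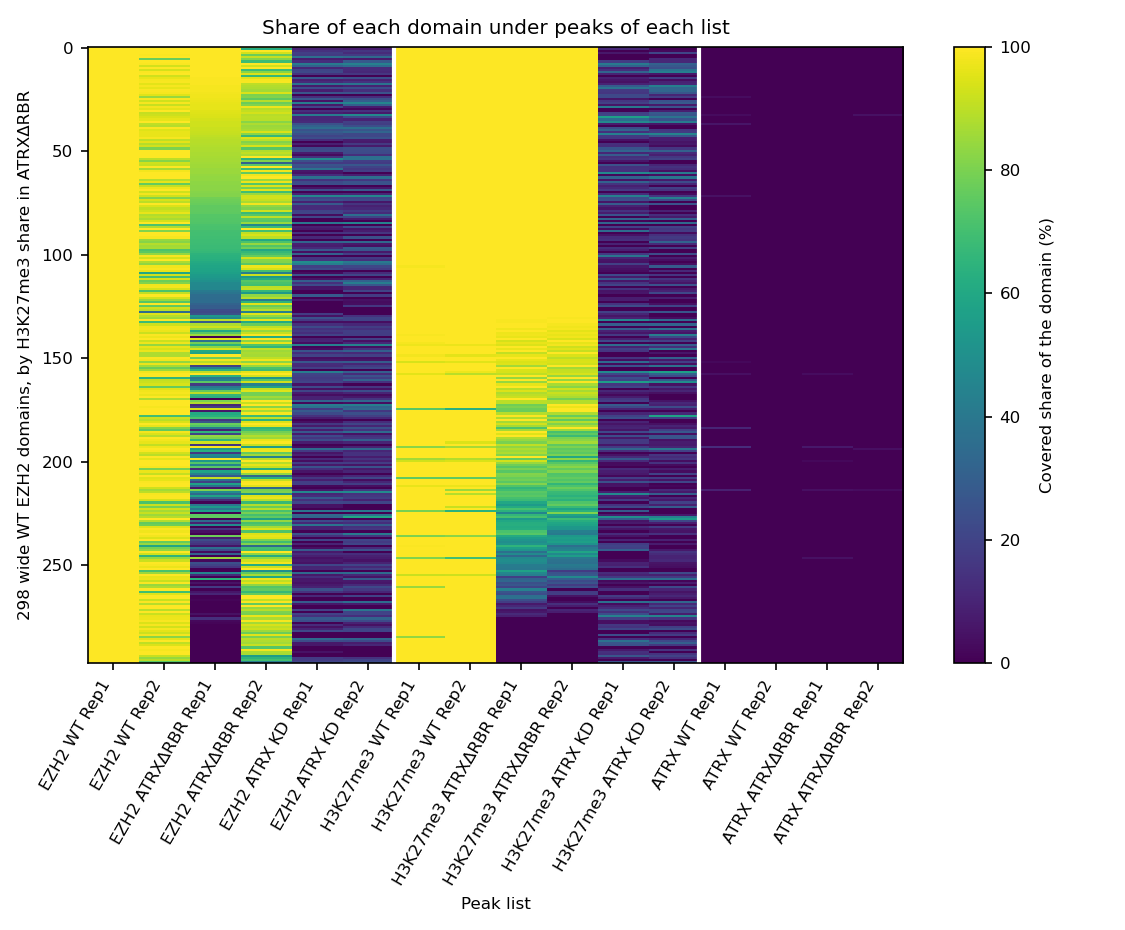
Covered share (colour, %) of each of the 298 wide WT EZH2 domains (rows, in order of the mean H3K27me3 share in ATRXΔRBR, with ties in order of EZH2 in ATRXΔRBR Rep1) in each of the 16 peak lists (columns, grouped as EZH2, H3K27me3 and ATRX by white lines). H3K27me3 fills the domains in WT, is absent from 22 at the bottom in both ATRXΔRBR libraries, and is thin over nearly all in ATRX KD; the EZH2 ATRXΔRBR Rep1 column fades towards the bottom and the Rep2 column does not.

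By the mean of both ATRXΔRBR lists, 167 domains were at least 90% covered by H3K27me3, 75 between 50% and 90%, 34 above 0 and under 50%, and 22 had no H3K27me3 peak in either list. The Hoxc, Nkx2-3 and Lbx1 domains were 100% covered in both libraries. The Hoxd10 domain was covered by 72.5% and 71.7%, the Evx2 domain by 78.3% and 78.7%, and the Pax6 domain by 62.4% and 52.5%. All of the 10 widest thus kept H3K27me3 over more than 50% of their length.

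The 22 domains without the mark measured 5024 to 14783 bp. The widest were those of Msx1 (14783 bp), a homeobox factor of limb and craniofacial tissue, Sim1 (13899 bp), a factor of hypothalamic neurons, and Six2 (13531 bp), a factor of kidney progenitors. Others were those of Tfap2c (8964 bp), Fezf2 (8752 bp), Isl1 (8052 bp), Pcdh7 (7755 bp), Sall1 (7251 bp), Nr3c2 (6873 bp), Prdm16 (6740 bp), Pou4f1 (6719 bp), Tlx3 (6674 bp), Lhx8 (6575 bp), Irx4 (6200 bp), C1ql2 (6184 bp), Kcnd3 (5370 bp), Cdk5r2 (5341 bp) and Pou3f1 (5076 bp). Further domains lay nearest to Gm15426, to Gm12688 beside Foxd3 and to Alx1. The 22 stood at 22 separate loci on 11 chromosomes. In both WT libraries the median H3K27me3 share of these domains was 100%.

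EZH2 in ATRXΔRBR Rep1 went with the mark, and in the library labelled ATRXΔRBR Rep2 it did not. Over all domains EZH2 peaks covered 58.0% of the bases in Rep1 and 85.02% in Rep2, and 42 domains had no EZH2 peak in Rep1 against 0 in Rep2. From the domains without H3K27me3 up to those at least 90% covered, the median EZH2 share of the 4 classes was 0, 1.97%, 44.3% and 82.4% in Rep1, and 87.2%, 84.2%, 85.8% and 84.8% in Rep2. Over the 298 domains the Spearman correlation of the H3K27me3 share in ATRXΔRBR with the EZH2 share was 0.718 for Rep1 and −0.0268 for Rep2. EZH2 in ATRXΔRBR Rep2 went instead with EZH2 in WT Rep2 (Spearman 0.574). These correlations describe lists that share the domains and are not tests.

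**Figure D2:**
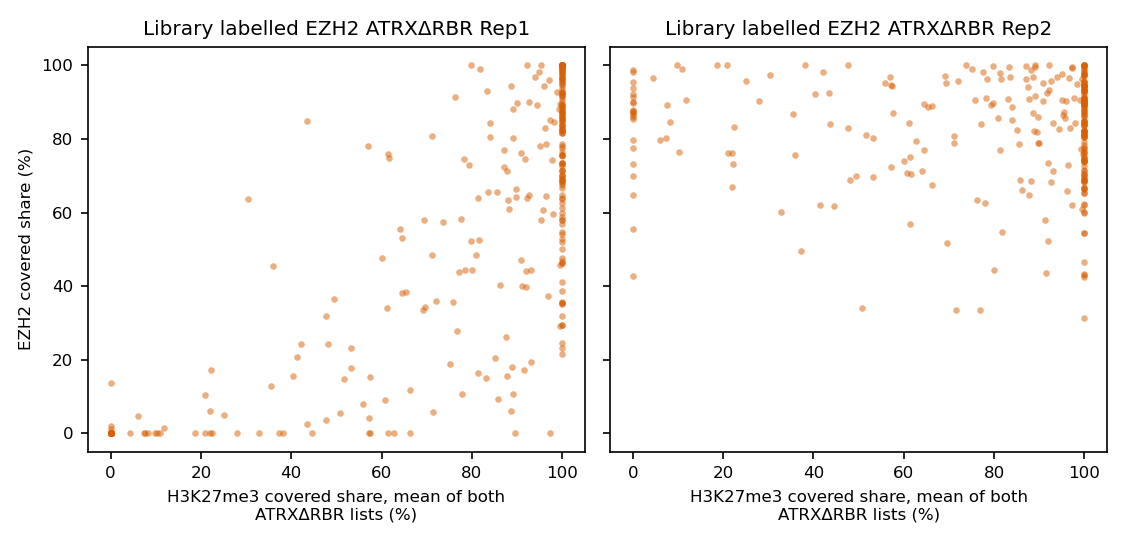
EZH2 covered share (y axis, %) against the mean H3K27me3 covered share of both ATRXΔRBR lists (x axis, %), 1 point per domain, for the libraries labelled EZH2 ATRXΔRBR Rep1 (left) and Rep2 (right). In Rep1, 42 domains sit at 0 on the y axis, mostly at low H3K27me3; in Rep2 none does.

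Of the 42 domains without EZH2 in ATRXΔRBR Rep1, 35 were under 50% covered by H3K27me3 in ATRXΔRBR and 19 of these had none. The 3 widest of the 42 were the domains of Prdm13 (20083 bp), Pax3 (19293 bp) and Six2 (13531 bp). Their EZH2 shares in the library labelled Rep2 were 87.1%, 90.4% and 93.8%. H3K27me3 in ATRXΔRBR was 61.6% and 53.4% over Prdm13, 33.6% and 22.4% over Pax3, and 0 in both libraries over Six2. By the mean of both EZH2 libraries the lowest domains were those nearest to Pantr2 (5.90% and 33.5%), Sez6 (5.42% and 34.1%) and Alx1 (0 and 42.9%).

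**Figure D3:**
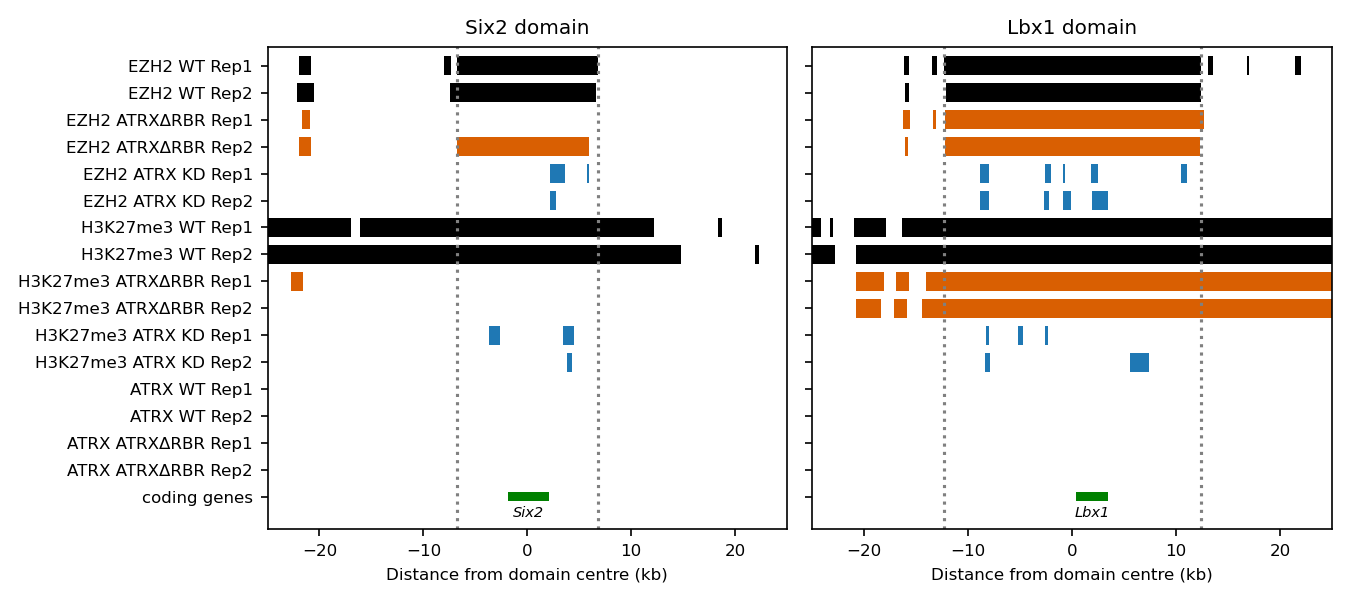
Peaks of each list (bars, black for WT, orange for ATRXΔRBR and blue for ATRX KD) within 25 kb of the centre of the Six2 and Lbx1 domains, whose ends are dotted, with protein-coding genes in green. At Six2 the H3K27me3 bars of both ATRXΔRBR libraries and the EZH2 bar of ATRXΔRBR Rep1 are missing from the domain, while at Lbx1 each of them covers at least 99.3% of it.

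The kept share is given next for chromosomes with high and low values, several of which held few domains. On chromosome 19, 15 of 16 domains were at least 90% covered by H3K27me3 in ATRXΔRBR, and on chromosome 15 it was 9 of 10. On chromosome 13 it was 4 of 18, on chromosome 17 it was 3 of 9, and on chromosome 18 it was 0 of 5. The median share on chromosomes 13, 17 and 18 was 79.3%, 25.2% and 80.9%, with 6, 5 and 1 domains under 50%. The most domains under 50% lay on chromosomes 1 (7 of 17), 4 (7 of 23) and 5 (7 of 38). Domains of 1 chromosome share a clone and were not tested. The kept share hardly went with the width of the domain (Spearman 0.0255), and went weakly with the WT fold enrichment (0.196) and with CpG density (−0.249). Pooled over all domains, the bases not under H3K27me3 in ATRXΔRBR had 4.65 and 4.51 CpGs per 100 bp in the 2 libraries, against 2.93 and 2.92 in the bases still covered. Of the uncovered bases, 34.2% and 34.0% lay within 1 kb of a TSS, against 20.2% and 19.9% of the covered. Domains without the mark add only to the uncovered side. Their median was 4.37 CpGs per 100 bp, against 3.19 in domains at least 90% covered.

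Among the listed families, domains of the 5 Pax genes and of the 9 forkhead genes had a median H3K27me3 share of 100% in ATRXΔRBR. The 6 Hox domains had a median of 84.3%, with 2 at 90% or more and none under 50%. The 52 domains of other homeobox genes had a median of 83.3%, with 22 at 90% or more and 18 under 50%, and those of the basic helix-loop-helix factors a median of 79.9%, with 6 of 13 at 90% or more. The T-box domains had the lowest median of these families, 62.8%. The median over all 298 domains was 99.2% in Rep1 and 97.4% in Rep2, and no test was run on the families.

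The rule was also turned around. Of the EZH2 peaks of ATRXΔRBR Rep1, 180 measured 5000 bp or more and overlapped ATRXΔRBR Rep2, and 124 of these overlapped a wide WT domain. EZH2 peaks of WT covered 87.7% and 87.6% of the bases of the 180, so most of this sequence was under EZH2 in WT as well.

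In ATRX KD the peaks within the domains were few and short. EZH2 peaks covered 12.6% and 14.2% of the domain bases and H3K27me3 peaks 11.3% and 10.8%, against 99.4% and 99.3% for H3K27me3 in WT. The H3K27me3 mean fell by 88.3 percentage points, to 11.1% ± 0.369 (SD, n = 2), and the groups did not overlap (exact two-sided permutation test, p = 0.333, the smallest possible). No domain held an EZH2 peak of 5 kb or more in either library, and the median width of the widest EZH2 peak in a domain was 1196 and 1264 bp. Some EZH2 remained in most domains, since 53 and 48 had no peak and 41 had none in both.

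The EZH2 share of ATRXΔRBR Rep1 alone, 58.0%, stood 44.6 percentage points above the mean of ATRX KD, 13.4% ± 1.09 (SD, n = 2). With the library labelled ATRXΔRBR Rep2 (85.02%), which goes against its label, the mean was 71.5% ± 19.1 and the difference 58.1 percentage points (exact two-sided permutation test, p = 0.333, the smallest possible). The ATRX KD lists were short everywhere, with 5376 and 7093 EZH2 peaks against 22316 and 18351 in WT, and 7241 and 6336 H3K27me3 peaks against 36011 and 38832. Peaks were called per library at depths that the lists do not hold, and the part of depth in these shares was not tested. Of narrower WT peaks, EZH2 in ATRX KD covered 18.4% and 22.7% at 2500 to under 5000 bp and 14.3% and 20.2% under 1000 bp, above the shares of the wide domains in both libraries.

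**Figure D4:**
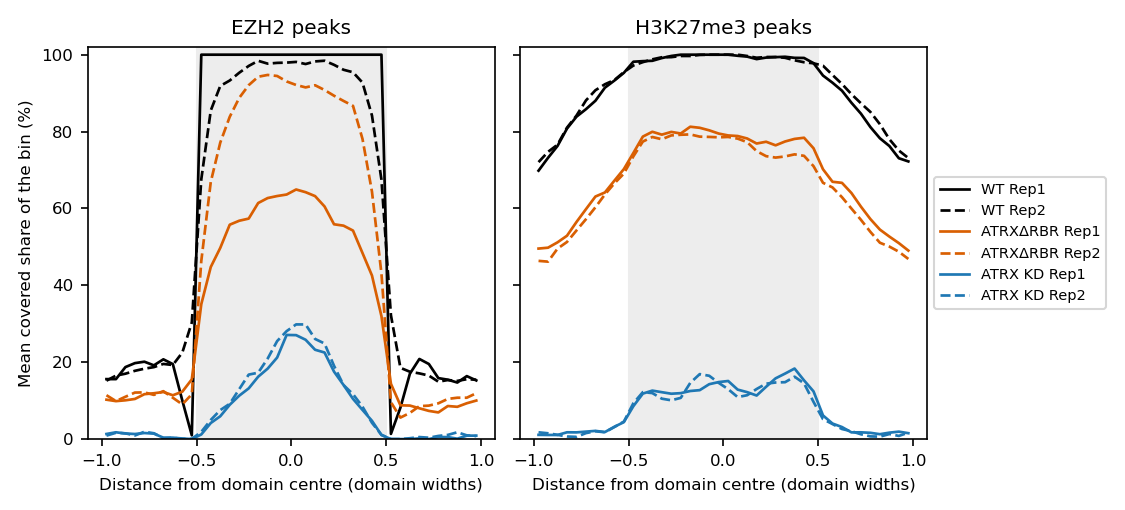
Mean covered share (y axis, %) of bins along the domains and their flanks (x axis, distance from the centre in domain widths, domain in grey) for EZH2 (left) and H3K27me3 (right) peaks of each library. In ATRX KD, EZH2 is highest around the domain centre, at 27.04% and 29.8%, and falls to 1.06% and 1.11% in the last bin of the domain, while H3K27me3 stays between 8.56% and 18.4% over the domain.

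What EZH2 still covered in ATRX KD was the CpG-dense part. These bases had 6.12 and 6.16 CpGs per 100 bp in the 2 libraries, against 2.85 and 2.78 in the rest of the domains, and 44.1% and 46.0% of them lay within 1 kb of a TSS, against 19.8% and 19.1%. Along the domains, EZH2 coverage in ATRX KD was 27.04% and 29.8% in a bin at the centre and 4.75% and 4.23% in a bin near the end. The bases under H3K27me3 in ATRX KD had the opposite composition, with 2.14 and 2.22 CpGs per 100 bp against 3.41 and 3.39 in the rest. The stretches printed above for the Hoxc and Hoxa domains show the same contrast for EZH2, with 7 and 9 CpGs against 2 and 2.

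By the mean of both libraries, the highest EZH2 shares in ATRX KD were those of the Fli1 domain (46.4% and 47.7%), the Mmp17 domain (45.9% and 46.0%) and the Camk2n1 domain (31.4% and 60.05%). Of the 41 domains with no EZH2 peak in either ATRX KD library, the 3 widest were 1 of 22697 bp whose nearest protein-coding gene was Zic1, the Tbx5 domain (16278 bp) and a neighbour of it (16104 bp). The Hoxc domain kept 8.71% and 9.52%, the Hoxd10 domain 2.26% and 4.17%. Over all domains both libraries ranked the domains alike (Spearman 0.820, a description).

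Most genes of the domains were silent in every genotype. Of the 422 genes with a TSS inside, 420 were in the RNA-Seq tables. In both WT libraries 283 of them had no counts at all, and 302 in ATRXΔRBR and 311 in ATRX KD. A mean TPM (transcripts scaled to gene length and library size) of at least 1 was reached by 44 in WT, 39 in ATRXΔRBR and 34 in ATRX KD. The libraries held from 9051693 to 21723647 estimated counts. In such bulk RNA, fewer cells of a type and less RNA per cell cannot be told apart.

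The genes of the domains that lost all H3K27me3 in ATRXΔRBR were silent too. Of the 27 genes in these 22 domains, 18 had no counts in both WT libraries and 22 had none in both ATRXΔRBR libraries. The highest in ATRXΔRBR was Kcnd3, with estimated counts of 4 and 2. Msx1 had 6 and 6 in WT against 0 and 0 in ATRXΔRBR, with 2 and 23 in ATRX KD. Pcdh7, a protocadherin, had 10 and 4 in WT and 0 and 1 in ATRXΔRBR, and Pou3f1, a neural and glial factor, 8 and 4 against 0 and 0. None of these 3 passed the test, at adjusted p = 0.0699, 0.126 and 0.0807 (edgeR quasi-likelihood test, Benjamini-Hochberg adjustment). All 3 passed the count limit through their WT counts, so a fall was the direction open to them, and nothing is read from it.

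Between ATRXΔRBR and WT, 24 member genes were called by edgeR's quasi-likelihood test at an adjusted p under 0.05, 8 higher and 16 lower, of the 422 in the domains. In domains of at least 8 kb the split was 6 higher and 3 lower. Only 72 of the 422 had more than 10 counts over the 4 libraries and were tested. Over all 16334 genes tested, 6.85% were called, 2.79% higher and 4.07% lower, with a median log2 fold change of −0.016. A gene that passed the count limit through 1 genotype alone had to differ, so the share of the 72 is not read against this background.

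Pax3, a factor of neural crest and muscle progenitors, rose most. Its estimated counts were 2 and 2 for WT, 105 and 196 for ATRXΔRBR, and 0 and 0 for ATRX KD. The 2 ATRXΔRBR libraries stood far above the rest, with a log2 fold change of 6.23 ± 0.41 (SE) and an adjusted p of 0.000335 (edgeR). It is the only 1 of the 8 genes that rose whose domain was under 50% covered by H3K27me3 in ATRXΔRBR, at 33.6% and 22.4%, with no EZH2 peak in ATRXΔRBR Rep1.

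The other genes that rose kept the mark over most of the domain. Hapln4, a link protein of the extracellular matrix, had estimated counts of 12 and 9 in WT and 140 and 224 in ATRXΔRBR (log2 fold change 4.20 ± 0.30 SE, edgeR adjusted p = 0.00036), in a domain with 70.7% and 58.2% H3K27me3. Col2a1, the type II collagen of cartilage, had 27 and 23 in WT and 206 and 287 in ATRXΔRBR (3.42 ± 0.24, adjusted p = 0.00036). Ccnd2, a D-type cyclin, had 62 and 39 in WT and 259 and 364 in ATRXΔRBR (2.75 ± 0.25, adjusted p = 0.000808). The domains of Col2a1 and Ccnd2 were at least 97.9% covered by H3K27me3 in both ATRXΔRBR libraries, and the EZH2 shares were 86.6% in Rep1 and 65.3% in Rep2 for Col2a1, and 92.9% and 90.5% for Ccnd2.

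The homeobox genes Onecut2, Hoxa10 and Shox2 rose as well. Onecut2 had estimated counts of 9 and 5 in WT and 38 and 44 in ATRXΔRBR, Hoxa10 had 32 and 19 against 45 and 101, and Shox2, a factor of limb and heart, had 150 and 127 against 247 and 354. In none of them did the groups overlap, with log2 fold changes of 2.67, 1.59 and 1.23 and edgeR adjusted p-values of 0.0111, 0.0434 and 0.00788. Hoxa10 was no longer called without ATRXΔRBR Rep2 (adjusted p = 0.161). H60b, a ligand of a natural killer cell receptor, had 2 and 5 in WT and 64 and 40 in ATRXΔRBR. Its gene overlaps Raet1e of the same family on the same strand, and Raet1e went the other way (58 and 83 against 10 and 17), so the split of reads between them is uncertain.

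**Figure D5:**
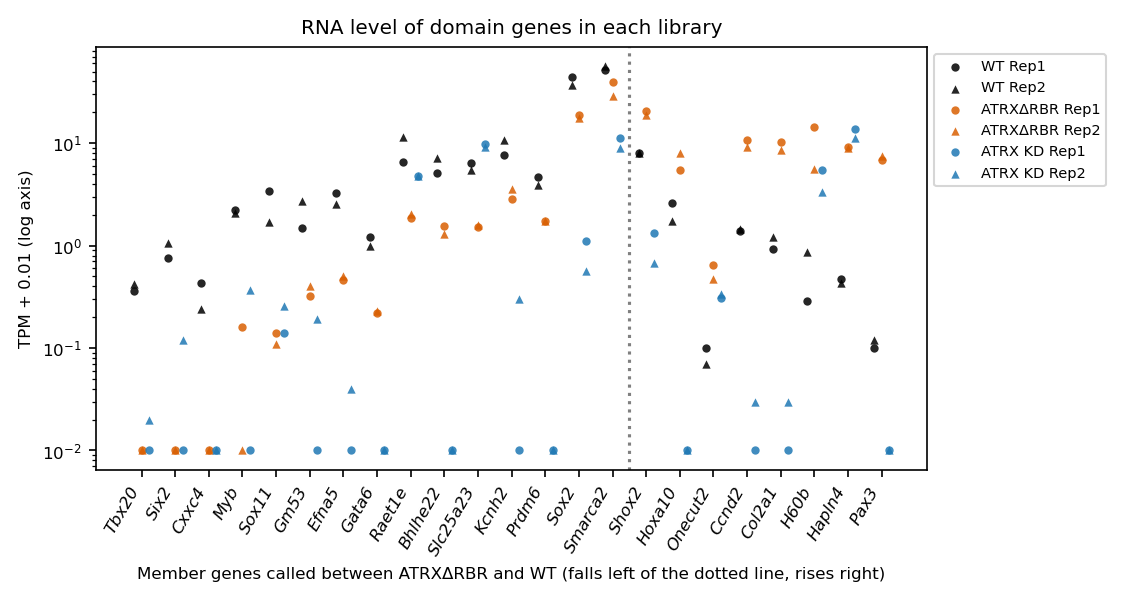
TPM with 0.01 added (y axis, log scale) of 23 member genes called between ATRXΔRBR and WT, with 1 point for each of the 6 RNA-Seq libraries (colour for genotype, circle for Rep1 and triangle for Rep2). The 15 plotted genes that fell stand left of the dotted line and the 8 that rose stand right of it, with Pax3 at the right end.

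Of the largest falls in ATRXΔRBR, 3 genes went to 0. These passed the count limit through WT alone, so a fall was the direction open to them. Their p-values carry that limit, and no link to the mark was tested. Tbx20, a cardiac T-box factor, had estimated counts of 23 and 13 in WT and 0 and 0 in ATRXΔRBR, at least 10.9-fold lower against a floor of 3 counts over both libraries (edgeR adjusted p = 0.0144). Six2 had 11 and 12 against 0 and 0, at least 7.06-fold lower against the same floor (edgeR adjusted p = 0.0253), in a domain that had lost all H3K27me3. Cxxc4, an inhibitor of Wnt signalling, had 13 and 8 against 0 and 0 and was no longer called without ATRXΔRBR Rep2 (adjusted p = 0.0595).

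Myb, a factor of blood progenitors, had estimated counts of 57 and 44 in WT and 2 and 0 in ATRXΔRBR (log2 fold change −5.36 ± 0.75 SE, edgeR adjusted p = 0.00507). Sox11, a neuronal factor, had 201 and 82 against 5 and 6 (−4.51 ± 0.53, adjusted p = 0.00233). Both stand in domains at least 91.4% covered by H3K27me3 in ATRXΔRBR. Efna5, an ephrin of axon guidance, fell from 94 and 60 to 8 and 14. Gm53 had 25 and 18 against 3 and 2. The groups did not overlap in any of these 4 genes. Of the 24 called genes, 1 stood in a domain without H3K27me3 in ATRXΔRBR, 2 in domains under 50%, 14 in domains of 50% to under 90% and 7 in domains of 90% or more.

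Between ATRX KD and WT, 46 member genes were called, 13 higher and 33 lower, of the 422, with 75 tested. Over all 16785 genes tested, 33.0% were called, 15.2% higher and 17.8% lower, with a median log2 fold change of −0.02. The same limit on reading the share of tested members applies.

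Bhlhe22, a neuronal factor, fell from estimated counts of 122 and 141 in WT to 0 and 0 in ATRX KD, at least 105-fold lower against a floor of 3 counts over both libraries, with 23 and 31 in ATRXΔRBR. Prdm6, a regulator of smooth muscle, fell from 69 and 57 to 0 and 0 (at least 49.9-fold), and Gsc, a homeobox factor of the early embryo, from 65 and 39 to 0 and 0 (at least 40.9-fold). Gata6, a factor of endoderm and heart, fell from 27 and 18 to 0 and 0 (at least 17.7-fold), and Nkx6-1, a factor of motor neurons and beta cells, from 21 and 15 to 0 and 0 (at least 14.2-fold). Every one of these 5 genes was at 0 in both ATRX KD libraries. They passed the count limit through WT alone, so a fall was the direction open to them.

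Kcnh2, a potassium channel, fell from 175 and 157 to 0 and 2, and Efna5 from 94 and 60 to 0 and 1. Hoxa10 and its neighbour Hoxa9 went to 0 and 0 and to 1 and 0, from 32 and 19 and from 74 and 72 in WT, while in ATRXΔRBR they had 45 and 101 and 100 and 151. Ccnd2 and Col2a1, which rose in ATRXΔRBR, had 0 and 1 in ATRX KD each. The 2 altered genotypes share the WT libraries, so these values are set side by side without a test.

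Most of the 8 largest rises in ATRX KD started from few counts in WT. Hapln4 rose from 12 and 9 to 173 and 375 (log2 fold change 4.41 ± 0.25 SE, edgeR adjusted p = 0.000112). Hoxb13 had 8 and 1 in WT and 33 and 72 in ATRX KD, Isl2, a factor of motor neurons, 5 and 1 against 23 and 45, and Dmbx1, a factor of the midbrain, 4 and 2 against 17 and 51. Each ATRX KD library was above each WT library in these 4 genes. Onecut2 had 16 and 43 and Cbln1, a synapse protein, 27 and 104, and neither was called without ATRX KD Rep2 (adjusted p = 0.116 and 0.144). H60b had 22 and 32, with the doubt on the split of reads given above. 1700016P03Rik, a non-coding RNA that hosts Mir212 and Mir132, had 0 and 0 in WT and 2 and 12 in ATRX KD, at least 3.33-fold higher against the floor. It passed the count limit through ATRX KD alone and was not called in the fit of all 6 libraries (adjusted p = 0.0628). Of the smaller rises, Igf2bp1, an RNA-binding protein of growing tissues, went from 669 and 506 counts to 814 and 2078 (log2 fold change 0.98 ± 0.14 SE, edgeR adjusted p = 0.0029), and Sgcb, a sarcoglycan, from 533 and 524 to 726 and 1550 (0.83 ± 0.13, adjusted p = 0.00387); both were named after their values were seen.

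A few members were well expressed within their EZH2 domain. The 8 highest by mean TPM in WT were Rnf220 (67.2 and 63.5 TPM), Hoxb9 (53.8 and 56.1), Smarca2 (52.1 and 56.4), Rsrc1 (47.7 and 51.7), Ostm1 (41.2 and 57.3), Pank4 (47.1 and 49.4), Chchd7 (49.0 and 44.7) and Sox2 (43.9 and 37.1). Rsrc1 shares its domain and overlaps at its start with Shox2 on the other strand, and Chchd7 shares its domain with Plag1. In this order the WT values of neighbours overlapped, except that both libraries of Rnf220 stood above Hoxb9, both of Smarca2 above Rsrc1 and both of Chchd7 above Sox2.

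Sox2, a factor of stem and neural cells, fell in both genotypes, to 18.7 and 17.5 TPM in ATRXΔRBR and to 1.10 and 0.55 TPM in ATRX KD (log2 fold change −1.23 ± 0.20 and −5.999 ± 0.31 SE, edgeR adjusted p = 0.0102 and 8.88e-05). Sox2 lies inside Sox2ot on the same strand. Smarca2, an ATPase of the SWI/SNF remodeller, fell to 39.7 and 29.2 TPM in ATRXΔRBR and to 11.2 and 8.88 TPM in ATRX KD (−0.81 ± 0.18 and −2.79 ± 0.18, adjusted p = 0.0327 and 0.00016). In ATRX KD, Rsrc1 and Chchd7 were lower and Ostm1 and Pank4 higher, by log2 fold changes of −0.47, −0.75, 0.47 and 0.45 (adjusted p from 0.0227 to 0.0429), and none of these 4 was called in ATRXΔRBR. Rnf220 and Hoxb9 passed the test in neither comparison (adjusted p from 0.223 to 0.824).

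Of the 25 Hox genes in domains, 6 were tested in each comparison, Hoxa9, Hoxa10, Hoxb7, Hoxb8, Hoxb9 and Hoxb13. Hoxa10 was the 1 that passed in ATRXΔRBR. In ATRX KD, Hoxb13 was higher and Hoxa9, Hoxa10 and Hoxb7 were lower. The 9 Hoxc genes and 8 Hoxd genes of the domains had at most 2 counts in any of the 6 libraries, so that the Hoxc domain, 100% under H3K27me3 in ATRXΔRBR and 6.21% and 3.73% in ATRX KD, was near silent in both. Of other homeobox genes in domains, 8 and 10 were tested, with 2 higher and 1 lower in ATRXΔRBR and 3 higher and 5 lower in ATRX KD. Both tested Sox members, Sox2 and Sox11, were lower in both comparisons. In the T-box, Gata and basic helix-loop-helix families 1 member each was tested (Tbx20, Gata6 and Bhlhe22) and was lower in both; as these were counted mainly in WT, a fall was the direction open to them, and nothing is read from it for the families. The shares called over all genes were 6.85% in ATRXΔRBR and 33.0% in ATRX KD, and with so few members tested the families are not set apart from them.

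The genes of PRC2 itself gave differences of mixed size and direction. Ezh2 had 204 and 177 TPM in the WT libraries, 246 and 206 in those of ATRXΔRBR and 243 and 236 in those of ATRX KD (log2 fold change 0.28 ± 0.16 and 0.37 ± 0.11 SE, edgeR adjusted p = 0.392 and 0.0435). Of 12 PRC2 subunit genes, 1 was called in ATRXΔRBR, Ezh1 (1.04 ± 0.19, adjusted p = 0.0161). Epop had the largest change there but did not pass (−1.31 ± 0.39 SE, edgeR adjusted p = 0.0959). In ATRX KD, Ezh1, Ezh2 and Phf19 were higher and Mtf2, Aebp2, Eed, Phf1 and Rbbp7 were lower, with log2 fold changes from −1.07 to 1.26. Of 21 PRC1 subunit genes, 1 was higher in ATRXΔRBR, and 2 were higher and 5 lower in ATRX KD. Beside the 6.85% and 33.0% called over all genes, the PRC1 counts are near the background in both comparisons, as is the PRC2 count in ATRXΔRBR. The PRC2 count in ATRX KD, 3 higher and 5 lower of 12, is above that share. No test was run on either list as a set.

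The markers of the labelled cell type were mixed. Of 12 fibroblast markers, Vim, Col1a1 and Col1a2 were high in all 6 libraries, while Thy1 was at 0 in all and Lum at 0 in 5. Col3a1, a fibrillar collagen, had 28.1 and 32.2 TPM in WT against 0.36 and 0.75 TPM in ATRX KD. Dcn, a matrix proteoglycan, was low in WT (1.54 and 0.79 TPM) and at 0 in both ATRX KD libraries. Postn was also low in WT (1.5 and 0.8 TPM) and lower in ATRX KD (0 and 0.33 TPM). Of the 10 tested, 3 were higher and 3 lower in ATRX KD, the higher being Fn1 (log2 fold change 0.99), S100a4 (0.62) and Pdgfrb (0.51), and 1 was higher and 1 lower in ATRXΔRBR. The summed level of the fibroblast markers was 13700 and 11400 TPM for WT, 21200 and 23300 for ATRXΔRBR and 18600 and 18900 for ATRX KD. Sums stayed at or under 6.11 TPM for epithelial, endothelial, skeletal muscle and pluripotency markers, and between 7.56 and 14.6 TPM for blood cell markers. Neural markers summed to 84.6 to 106 TPM, of which Sox2 is a member gene. Of the 4 neural markers tested in ATRX KD, 1 was higher and 1 lower. Sox2 fell, and Map2 rose from 14.6 and 25.6 TPM in WT to 49.2 and 45.5 TPM (log2 fold change 1.09 ± 0.18 SE, edgeR adjusted p = 0.00506). The part of all these markers in the differences of the member genes was not tested.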

How the data were processed

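Peaks of the CUT&RUN libraries and gene tables of the RNA-Seq libraries were used as deposited. The authors aligned CUT&RUN reads to mm10 with Bowtie2 and called broad peaks per library with MACS2; the control is not given in the sources used here. The deposited peak lists hold a fold enrichment (a ratio), −log10 p- and q-values and a score. The authors aligned RNA-Seq reads with STAR and counted them with RSEM, and the deposited tables hold estimated counts, TPM and FPKM (FPKM was not used). IgG libraries were not analysed here. Covered shares were computed as domain bases under peaks. Genes were placed by their TSS in GENCODE M21. Estimated counts were rounded and tested with edgeR 4.0.16 in R 4.3.3 (TMM, quasi-likelihood, Benjamini-Hochberg), for genes with more than 10 counts over the 4 libraries of a comparison, and with DESeq2 1.42.0 as an alternative. The test was tested on simulated data. The study gives an approximate range of reads per sample, but the depth behind each peak list is not known. RNA libraries held 9051693 to 21723647 estimated counts. Covered shares were compared by exact permutation over libraries. Named were the 10 widest domains, those at the width limit and at the extremes of EZH2 cover, members of fixed gene lists, the 8 largest called rises and falls, and the 8 highest WT genes; domains without H3K27me3 in ATRXΔRBR or with ATRX peaks, and the genes in them, were added after their values were seen. Some items are not reported here. The domains, lists and tests were chosen with earlier results of these data known. Equal replicate numbers did not deviate together (correlation −0.364 and −0.0281), so no pairing was used.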

Additional observations from a re-analysis of the deposited data

How the results depend on the processing

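The H3K27me3 differences over the domains kept their direction under every alternative run, all of which chose the domains on EZH2 in WT. These were domains of at least 4 or 8 kb, and domains at least 50% covered in or taken from EZH2 WT Rep2. Peaks with a q-value of at most 0.01 and a mean over domains were also run. Leaving out 1 library at a time gave −20.8 to −18.6 percentage points for ATRXΔRBR minus WT, −88.6 to −88.0 for ATRX KD minus WT, and 44.6 to 71.6 for EZH2 in ATRXΔRBR minus ATRX KD. The ATRX difference ranged from −0.0734 to 0.0432 percentage points and turned its sign without ATRX WT Rep1, the library with 9 of the domains holding a peak. With 2 libraries a group no permutation p could pass 0.05, so these values speak of direction only.

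Called member genes numbered 12 (ATRXΔRBR) and 13 (ATRX KD) with at least 10 counts in every library, where 34 and 21 members were tested and 597 calls were made over all genes in ATRXΔRBR against 1119; the split in ATRX KD became 6 higher and 7 lower, from 13 and 33. With domains of at least 8 kb they numbered 9 and 20, and the split in ATRXΔRBR turned from 8 higher and 16 lower to 6 higher and 3 lower; with domains of at least 4 kb they numbered 37 in ATRXΔRBR, since the sets of genes differ. Leaving out 1 library gave 18 to 27 in ATRXΔRBR and 34 to 46 in ATRX KD, and DESeq2 gave 20 and 36. Over all genes, leaving out WT Rep2 moved the calls in ATRX KD from 5538 to 8947, and leaving out ATRX KD Rep1 or Rep2 to 3525 or 3193. No filter on counts gave 1979 over all genes in ATRXΔRBR, with 32 members. The fit of all 6 libraries gave 1812 over all genes there, with the same 24 members. With the replicate number as a block, 24 and 45 members were called, and a crossed replicate pairing as a block, chosen after seeing the data, gave 37 and 46 (5585 and 6465 over all genes). Of the 8 largest rises and falls of each comparison, no fold change turned its sign; the other named genes were not refitted one by one. Without ATRXΔRBR Rep2, Gm53, Cxxc4 and Hoxa10 were no longer called, and Gm53 and Cxxc4 were not called by DESeq2 either. In ATRX KD, Onecut2 was not called by DESeq2 or without ATRX KD Rep2, Cbln1 not without ATRX KD Rep2, and 1700016P03Rik not in the fit of all 6 libraries.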
